A study of Mus musculus with 6 samples.

Results

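The 44 genes described here encode proteins of the cilium, most of them parts of the primary cilium and its transport. They comprise 14 subunits of the intraflagellar transport trains, 8 genes of the BBSome and its chaperonins, 3 kinesin motor subunits, 3 ARL GTPases, 5 Hedgehog regulators that work in or at the cilium, 4 basal body and docking genes, 1 axonemal dynein gene and 6 transition zone genes. The rule that picked them uses their symbols and known roles and no measured value, although the list was drawn up with earlier results of these data known, and all 44 were found among the 54532 mouse genes of the deposited expression table. Of these, 43 reached a mean of 0.5 FPKM over the 6 tumors and were tested together with all 15820 genes at that level. FPKM is the number of sequenced fragments per kilobase of transcript, scaled to the size of the library.

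A primary cilium is a single, non-motile antenna that a resting cell grows from its older centriole, the basal body, and takes down before it divides. Proteins are carried out along it by kinesin-2 motors with the IFT-B train and carried back by dynein-2 with the IFT-A train, while the BBSome removes membrane receptors and the transition zone at the base acts as a gate. Vertebrate cells run Hedgehog signalling through this organelle: Smoothened enters it when the signal arrives, and the Gli transcription factors pass through its tip. Many melanomas carry few cilia, whereas fibroblasts and endothelial cells of the stroma can grow them.

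RNA was measured in 6 whole tumors grown in C57Bl/6 mice from a mouse melanoma line that carries an activating BRAF mutation, which both groups share. The cells of 3 tumors carried Gli2CA, by its name an active form of Gli2, the Hedgehog transcription factor, and those of the other 3 carried NTC, the control. Both kinds of cells had been grown with 1 ug/mL of puromycin, an inoculum of 1000000 cells (100 uL, Matrigel mixed with PBS) was implanted, and the tumors were taken at day 28. The sources used here do not give the promoter of the Gli2CA construct, the number of clones behind each line or the age of the mice, and the labels do not say that each tumor came from a separate mouse. The p-values therefore measure the spread between these tumors, which may be technical in part.

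The totals recovered from the FPKM steps ran from 16225442 to 20182989 fragments in the Gli2CA tumors and from 17721675 to 22274080 in the NTC tumors. Gli2 itself stood at 3.22, 5.82 and 1.61 FPKM in the tumors labelled Gli2CA and at 8.88, 11.1 and 7.96 FPKM in the NTC tumors. The targeted gene was therefore lower in all 3 tumors labelled Gli2CA, against what their label leads a reader to look for, and the sources used here do not say whether the construct's own transcript would be counted as Gli2. For this reason every difference below is between tumors labelled Gli2CA and tumors labelled NTC. Of the markers of the pigment cell lineage, Sox10 averaged 72.2 ± 23.1 FPKM in Gli2CA and 132.7 ± 46.7 FPKM in NTC tumors, with overlap, and Mitf 6.24 ± 0.218 FPKM in Gli2CA and 9.6 ± 1.15 FPKM in NTC tumors, without overlap (SD, n = 3 each; neither called), while Tyrp1 and Slc45a2 were listed at 0 in all 6 tumors. Summed levels of fibroblast and endothelial markers also lay apart between the groups, although none of these markers was called. The groups did not overlap for 33.8% of all tested genes. The summed level of 8 fibroblast markers was 5592 to 8855 FPKM in Gli2CA tumors and 10150 to 32320 FPKM in NTC tumors. Most of that sum came from Col1a1, Col1a2 and Col3a1, and the groups overlapped for 4 of the 8 markers (Col3a1, Dcn, Lum and Thy1). The sum of 5 endothelial markers was 57.4 to 67.1 FPKM in Gli2CA tumors and 82.6 to 138.5 FPKM in NTC tumors, with overlap for 2 of them (Pecam1 and Emcn). Skeletal muscle markers varied widely within both groups. The sum of 6 of them was 719.7, 20.17 and 244.5 FPKM in Gli2CA tumors 1, 2 and 3, against 9.265, 12.49 and 1250 FPKM in NTC tumors 1, 2 and 3. The part of muscle RNA in the levels of the cilium genes was not tested.

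Odf2l and Wdr63 rose in the Gli2CA tumors, by about 6-fold each, and none of the other 41 tested cilium genes passed the threshold of an adjusted p of 0.05 in limma. Both lie on chromosome 3, with their starts 990 kb apart. The share called was 4.65% of the tested cilium genes, beside 0.348% of all tested genes (55 of 15820). Because the list was drawn up with earlier results of these data known, these shares describe it and do not measure an excess. Of 71 tested genes in further cilium lists, given below, none was called. Both called members were higher, where 0.265% of all genes were called higher and 0.0822% lower. Limma-voom on the recovered fragments called the same pair of members, beside 0.664% of all genes. With protein-coding genes alone rescaled to a common total, the calls over all genes changed from 42 higher and 13 lower to 99 higher and 612 lower, and the median difference of all genes moved by -0.25 on the log2 scale, but the called members were the same pair. A fold change is given throughout as the log2 fold change of Gli2CA over NTC on log2(FPKM + 0.5), which understates the change of genes at low levels.

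Odf2l encodes a relative of the mother-centriole protein ODF2 that sits at centrioles and centriolar satellites, and its product has been described as an inhibitor of cilium formation. Its level was 40.0, 23.1 and 50.2 FPKM in Gli2CA tumors 1, 2 and 3, from 1257, 598 and 1619 recovered fragments, against 3.88, 7.40 and 6.36 FPKM in NTC tumors 1, 2 and 3, from 138, 250 and 180 fragments. All Gli2CA tumors were far above all NTC tumors, and the lowest of them, tumor 2, was also the lowest in recovered fragments overall. The means were 37.8 ± 13.7 FPKM in Gli2CA and 5.88 ± 1.81 FPKM in NTC tumors (SD, n = 3 each), a ratio of 6.42. The log2 fold change was 2.56 with an SE of 0.34 and a 95% interval of 1.79 to 3.33 (limma, adjusted p = 0.0321). Among the cilium genes Odf2l thereby had the highest mean but for Ift20 and Arl3 in the Gli2CA tumors, at about the level of Tulp3, while in the NTC tumors it was below the middle of the range. In tumors of mixed cells, a change in the number of cells that make a transcript and a change in the RNA made by each cell cannot be told apart.

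Wdr63 encodes an intermediate chain of the inner dynein arms, which belong to motile cilia and sperm tails and not to the immotile primary cilium. It stood at 3.26, 5.09 and 6.21 FPKM in Gli2CA tumors 1, 2 and 3, from 97, 125 and 190 fragments, against 0.8, 0.968 and 0.596 FPKM in NTC tumors 1, 2 and 3, from 27, 31 and 16 fragments. The groups did not overlap, and the level stayed low in both. The means were 4.85 ± 1.49 FPKM in Gli2CA and 0.788 ± 0.186 FPKM in NTC tumors (SD, n = 3 each), a ratio of 6.16, and the log2 fold change was 2.02 with an SE of 0.30 and a 95% interval of 1.34 to 2.71 (limma, adjusted p = 0.0385).

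Both calls rest on few libraries. When 1 tumor was left out, Odf2l stayed past the threshold without Gli2CA tumor 2 and missed it without any other, with adjusted p-values of 0.0593 to 0.13 in limma. Wdr63 missed it in all 6 such fits, at 0.0549 to 0.196. The log2 fold changes themselves stayed at 2.31 to 2.87 for Odf2l and at 1.68 to 2.56 for Wdr63 over all 19 alternative settings.

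Odf2l (ENSMUSG00000028256) runs from 145118588 to 145153915 on the plus strand of chromosome 3 and Wdr63 (ENSMUSG00000043020) from 146040526 to 146108130 on the minus strand, in GENCODE M21 on GRCm38, and the annotated exons of neither overlap another gene's exons. Because the 2 called genes lie so close, their surroundings were examined after their values had been seen. In a window reaching 1000000 bases beyond them, 28 other genes were tested and none was called. An unadjusted p under 0.05 was reached by 12 of these 28 (42.9%), all of them higher in Gli2CA tumors, beside 27.5% of all tested genes in either direction and 12.8% in the higher direction. Most of these 12 are shorter than 1599 bases, a class with a median log2 fold change of 0.20 over all tested genes. They include the processed pseudogenes Rpl36a-ps2 (321 bases) and Gm10288 (537 bases), while Bcl10, Clca2, Ctbs and Lpar3 are longer. Between Odf2l and Wdr63, 9 genes were tested, with log2 fold changes of -0.40 to 1.03 and a median of 0.61, and 4 of them were higher at an unadjusted p under 0.05. The gene nearest in size of change was Lpar3, a lysophosphatidic acid receptor, with a log2 fold change of 1.24 (limma, adjusted p = 0.0775). It was at 1.26, 1.35 and 1.29 FPKM in Gli2CA tumors, against 0.146, 0.538 and 0.160 FPKM in NTC tumors, there from 8, 28 and 7 fragments. Its NTC mean was 0.281 FPKM, so Lpar3 reached the level for testing only through the Gli2CA tumors. Of the 28 genes, 19 had estimates above 0 and their median was 0.40, beside -0.04 over all tested genes. The part of a difference shared by the region in the levels of Odf2l and Wdr63 was not tested.

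**Figure D1:**
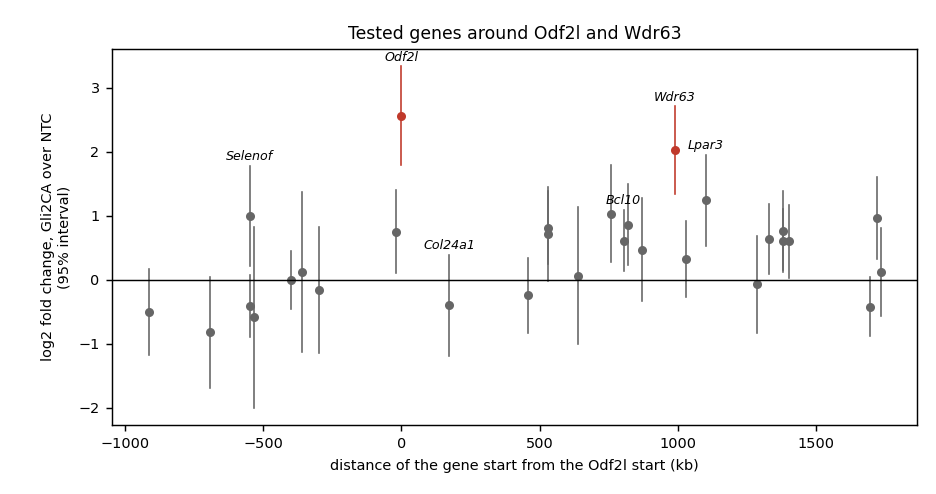
Log2 fold change of Gli2CA over NTC with its 95% interval for each tested gene around Odf2l and Wdr63, against the distance of its start from that of Odf2l in kb. The called pair stands above the rest at 2.56 and 2.02, and the 28 other genes, shown in grey, have a median of 0.40.

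The start regions of this pair are shown because the members that moved can then be compared with cilium genes that carry the classical promoter mark of ciliary genes, the X-box. That sequence is bound by RFX factors and is a pair of inverted half-sites. The stretches run from 120 bases before to 30 bases after the annotated start, from RefSeq on GRCm38.p6, for Odf2l at chr3:145118469-145118618 on the plus strand and for Wdr63 at chr3:146108007-146108156 on the minus strand, 5′ to 3′ along the gene, with single T-form half-sites, GTTGCT or its reverse complement AGCAAC, in capitals:

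Odf2l: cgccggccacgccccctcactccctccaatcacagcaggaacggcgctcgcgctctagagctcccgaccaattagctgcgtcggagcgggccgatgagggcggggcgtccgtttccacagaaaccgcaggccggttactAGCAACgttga

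Wdr63: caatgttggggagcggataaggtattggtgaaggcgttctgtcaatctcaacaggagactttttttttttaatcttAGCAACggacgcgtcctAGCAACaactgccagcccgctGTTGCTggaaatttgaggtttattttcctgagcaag

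Wdr63 held 3 such half-sites, starting 44, 27 and 6 bases before its start, and Odf2l held 1, starting at base 20 of the transcript at the first of its 2 annotated start sites. Neither stretch held the full form defined next. The T-form half-site was present in the 300-base promoter window of 13 of the 40 cilium genes with a RefSeq promoter (32.5%) and of 16.7% of all 27025 genes in that table. The 9-base Gli site GACCACCCA was found on either strand in none of the 40 windows and in 0.289% of all genes.

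The full X-box was searched for on both strands as GTNNCC and GGNAAC with any 2 bases between them, which reads on the other strand as GTTNCC and GGNNAC, in the window from 250 bases before to 50 bases after each annotated start. This form was chosen after sequences had been seen, and it can overlap the C-form half-site GTTGCC. It fixes the gap at 2 bases and asks for GG after it, so a promoter without it can still hold a near match. The Odf2l stretch above holds gtttccacagaaac, with AG where the form asks for GG. The searched form was present in 8 of the 40 cilium genes (20%), beside 403 of 27025 genes (1.49%). The C-form half-site was present in 16 of 40 (40.0%), beside 14.1% of all genes. The 8 sites are shown because they mark the cilium genes whose promoters hold the searched form, with the match in capitals, from RefSeq on GRCm38.p6 and on the strand of the gene, which is minus for Bbs1, Bbs4, Bbs7 and Tctn1 and plus for the others:

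Bbs1, chr19:4906605-4906634: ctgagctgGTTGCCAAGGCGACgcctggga
Bbs4, chr9:59353464-59353493: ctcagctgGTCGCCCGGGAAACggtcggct
Bbs7, chr3:36613489-36613518: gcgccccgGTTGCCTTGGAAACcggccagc
Ift22, chr5:136908079-136908108: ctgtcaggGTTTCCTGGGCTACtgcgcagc
Ift57, chr16:49699199-49699228: cgggtctgGTTGCCGTGGTGACcggctgcc
Mks1, chr11:87853183-87853212: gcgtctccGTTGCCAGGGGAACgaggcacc
Tctn1, chr5:122264411-122264432: ctgtgactGTTGCCCGGGCAAC
Tctn2, chr5:124598679-124598708: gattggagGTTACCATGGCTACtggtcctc

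None of these 8 genes was called and none had an unadjusted p under 0.05 in limma, where 0.348% of all tested genes were called and 27.5% had such a p. Their log2 fold changes ran from -0.46 to 0.38 with a median of -0.13. The 31 tested cilium genes with a promoter window but without the form had a median of -0.10, a range of -0.83 to 2.56, 2 calls and 9 unadjusted p-values under 0.05. The difference between these counts was not tested. The medians of the groups with and without the searched form thus lay close to each other. The called pair is in the group without it, although Odf2l holds the near match given above, and variants of the form were not counted. A match is a description of letters and does not show binding.

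**Figure D2:**
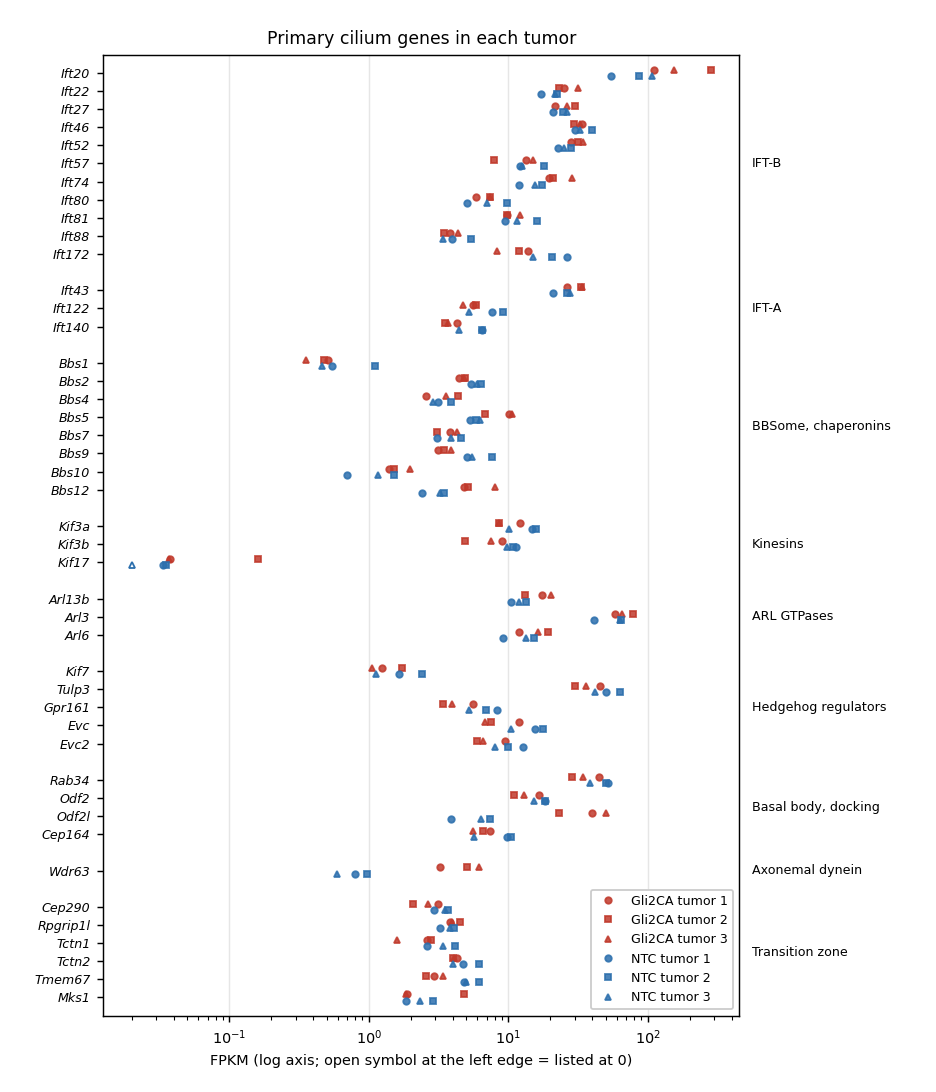
FPKM of each of the 44 cilium genes in each tumor on a log axis, grouped by role, with Gli2CA tumors above NTC tumors within a gene and open symbols for values listed at 0. Odf2l and Wdr63 are the genes whose Gli2CA and NTC tumors stand farthest apart, and Kif17 lies near 0 in all tumors.

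Over all 43 tested cilium genes, 17 estimates were above 0 and 26 below, with a median log2 fold change of -0.20, beside -0.04 over all tested genes. The median size of the difference without its sign was 0.38, beside 0.43 over all tested genes. An unadjusted p under 0.05 was reached by 10 members (23.3%, beside 27.5% of all tested genes), 6 of them higher and 4 lower. The groups did not overlap for 13 members (30.2%, beside 33.8%), 7 with Gli2CA above and 6 with Gli2CA below. Both shares are close to or under those of all genes. Without Odf2l and Wdr63, 8 of 41 members had an unadjusted p under 0.05 (19.5%) and 11 did not overlap (26.8%).

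The tumors of each group also differed among themselves. The median deviation of the tested members from the NTC mean was -0.11, -0.24 and -0.06 in Gli2CA tumors 1, 2 and 3, against -0.17, 0.22 and -0.06 in NTC tumors 1, 2 and 3, so Gli2CA tumors 1 and 3 lay within the range of the NTC tumors and Gli2CA tumor 2 below it. NTC tumor 2 had the highest value of the NTC tumors for 34 of the 44 genes and the lowest for none. Leaving out NTC tumor 2 brought the members' median log2 fold change to 0.00.

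**Figure D3:**
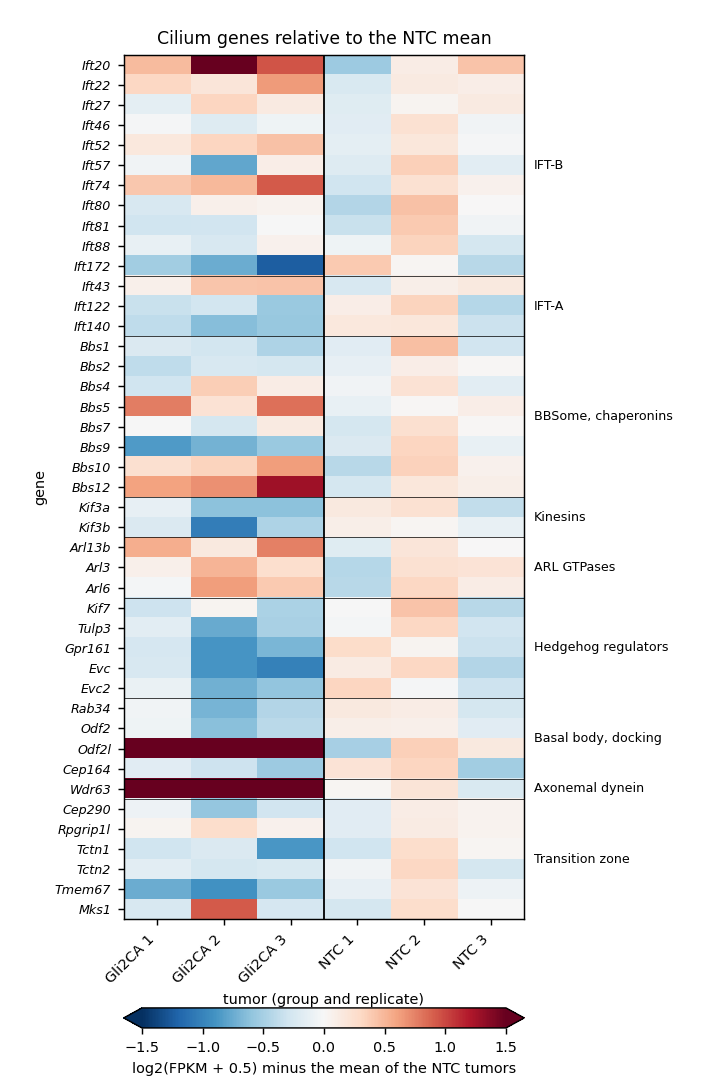
Each cell shows log2(FPKM + 0.5) of a cilium gene in a tumor minus the mean of the NTC tumors, with Gli2CA tumors on the left and colors limited to 1.5 in either direction. NTC tumor 2 is the highest NTC tumor for 34 genes, and the rows of Odf2l and Wdr63 are high in all 3 Gli2CA tumors.

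Levels of different genes can be compared in FPKM, which is per length, although the length used is a mean over annotated transcripts and not over those made. Ift20 was the most abundant cilium gene, at means of 182.7 FPKM in Gli2CA and 83.1 FPKM in NTC tumors, followed in NTC tumors by Arl3 at 56.3, Tulp3 at 51.9 and Rab34 at 47.0 FPKM. The lowest besides Kif17 were Bbs1, at 0.447 FPKM in Gli2CA and 0.708 FPKM in NTC tumors, and, in NTC tumors, Wdr63.

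The IFT-B train, which carries cargo outward, had 11 tested members and none called, with 5 estimates above 0 and 6 below and a median of -0.04. An unadjusted p under 0.05 was reached by 2 higher members and 1 lower. Ift20, a peripheral subunit that also sits on the Golgi and sorts membrane cargo for the cilium, was at 111.6, 282.2 and 154.3 FPKM in Gli2CA tumors, against 54.6, 86.7 and 108.1 FPKM in NTC tumors. These groups did not overlap, although Gli2CA tumor 1 and NTC tumor 3 lay within 4 FPKM of each other, and Gli2CA tumor 2 stood far above the rest. Its log2 fold change was 1.08, with an SE of 0.38 and a 95% interval of 0.22 to 1.93 (limma, adjusted p = 0.12). Ift172, a large peripheral subunit involved in turning the train around at the ciliary tip, went the other way, at 13.9, 11.9 and 8.28 FPKM in Gli2CA tumors, against 26.6, 20.5 and 15.0 FPKM in NTC tumors. Every Gli2CA tumor was below every NTC tumor, by a log2 fold change of -0.83 with an SE of 0.29 and a 95% interval of -1.48 to -0.19 (limma, adjusted p = 0.115).

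Ift74, which binds tubulin together with Ift81, was at 19.7, 21.0 and 28.5 FPKM in Gli2CA tumors, against 12, 17.5 and 15.5 FPKM in NTC tumors. The groups did not overlap, and the log2 fold change was 0.60 (SE 0.24, limma adjusted p = 0.155). Its partner Ift81 had an estimate of -0.20 with a 95% interval of -0.77 to 0.37, and the difference between the partners was not tested. Among the others, the Rab-like GTPases Ift22 and Ift27 had estimates of 0.38 and 0.11, and the scaffold subunits Ift46, Ift52 and Ift88 had estimates of -0.09, 0.31 and -0.10. Ift57, which helps to link the train to its motor, had an estimate of -0.24, and Ift80, a scaffold-linked subunit, one of -0.04. The signs of Ift27, Ift46, Ift57, Ift80 and Ift88 turned under at least 1 alternative, so none of these is given a direction.

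The IFT-A train, which brings cargo back and lets membrane proteins in, had 3 members, none past the threshold. Ift140, a core subunit, was at 4.28, 3.52 and 3.69 FPKM in Gli2CA tumors, against 6.44, 6.51 and 4.47 FPKM in NTC tumors, without overlap, at a log2 fold change of -0.53 (SE 0.25, limma adjusted p = 0.198). Ift122, also a core subunit, was at 5.6, 5.84 and 4.72 FPKM in Gli2CA tumors, against 7.70, 9.15 and 5.23 FPKM in NTC tumors, which overlapped, at -0.39. Ift43, a small peripheral subunit, was at 26.3, 33.4 and 33.7 FPKM in Gli2CA tumors, against 21.1, 26.4 and 27.7 FPKM in NTC tumors, which overlapped, at 0.31. The large and the small subunits of this complex thus had estimates of opposite sign, but not once the trend with length described further on was removed, when Ift43 was at -0.11.

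The BBSome is a coat complex that moves receptors out of the cilium, and Bbs10 and Bbs12 are chaperonin-like proteins that help to assemble it. None of these 8 genes was called, 4 estimates were above 0 and 4 below, and the median was 0.01. Bbs12 was at 4.85, 5.16 and 8 FPKM in Gli2CA tumors, against 2.42, 3.46 and 3.23 FPKM in NTC tumors. The groups did not overlap, and the log2 fold change was 0.86 with an SE of 0.27 and a 95% interval of 0.24 to 1.48 (limma, adjusted p = 0.103). Bbs9, a structural core subunit, was at 3.11, 3.46 and 3.91 FPKM in Gli2CA tumors, against 5.10, 7.65 and 5.52 FPKM in NTC tumors, below in every tumor, at -0.71 (SE 0.25, limma adjusted p = 0.121). Bbs5, a subunit that binds membrane lipids, was at 10.2, 6.82 and 10.7 FPKM in Gli2CA tumors, against 5.34, 5.86 and 6.25 FPKM in NTC tumors, above in every tumor, at 0.60 (SE 0.25, limma adjusted p = 0.159). In all, 4 of these 8 genes did not overlap, 2 in each direction, where 33.8% of all tested genes did not overlap and none of the 8 passed the threshold.

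Of the other BBSome subunits, Bbs2 had an estimate of -0.30, Bbs1 of -0.32 and Bbs7 of -0.04, and Bbs4, which links the complex to centriolar satellites, had one of 0.06 that turned sign with protein-coding genes alone rescaled. Bbs10 had an estimate of 0.40. Bbs2 was the remaining member without overlap, at 4.42 to 4.90 FPKM in Gli2CA tumors and 5.38 to 6.34 FPKM in NTC tumors.

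Kif3a and Kif3b form the heterodimeric core of the kinesin-2 motor that drives outward transport. Kif3b was at 9.02, 4.90 and 7.55 FPKM in Gli2CA tumors, against 11.3, 10.8 and 9.76 FPKM in NTC tumors, without overlap, at a log2 fold change of -0.57 (SE 0.26, limma adjusted p = 0.193). Kif3a was at 12.2, 8.52 and 8.53 FPKM in Gli2CA tumors, against 14.8, 15.7 and 10.2 FPKM in NTC tumors, which overlapped, at -0.45 (limma, adjusted p = 0.28). Neither motor subunit passed the threshold, and the estimate of Kif3b was -0.20 with the length trend removed and -0.34 without Gli2CA tumor 2. Kif17, a homodimeric kinesin-2 known best from sensory and nerve cells, was under the level for testing, with 2, 7 and 2 recovered fragments in Gli2CA tumors and 2, 2 and 0 in NTC tumors, too few to compare.

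The ARL GTPases Arl13b, Arl3 and Arl6 had estimates above 0, and no group separated fully from the other. Arl13b, a ciliary membrane GTPase that activates Arl3 and is needed for normal Hedgehog signalling, was at 17.5, 13.2 and 20.3 FPKM in Gli2CA tumors, against 10.4, 13.5 and 11.9 FPKM in NTC tumors, at a log2 fold change of 0.48 (SE 0.24, limma adjusted p = 0.219). Gli2CA tumor 2 lay within the range of the NTC tumors. Arl3, which releases lipid-anchored cargo inside the cilium, was at 58.4, 78.5 and 65.8 FPKM in Gli2CA tumors, against 40.9, 64.5 and 63.6 FPKM in NTC tumors, at 0.28. Arl6, which recruits the BBSome to membranes, was at 12, 19.3 and 16.4 FPKM in Gli2CA tumors, against 9.10, 15.4 and 13.4 FPKM in NTC tumors, at 0.33. In both, NTC tumor 1 was the lowest of the 6.

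All 5 ciliary Hedgehog regulators had estimates below 0, with a median of -0.47, but none was called, each had overlapping groups, and the sign of Kif7 turned when a trend with transcript length was removed. All 5 are longer than 1599 bases, the median length over all tested genes. Among the 24 tested cilium genes of at least that length, only 5 estimates were above 0, with a median of -0.33, so the shared sign is not particular to these regulators. Evc, which with Evc2 passes the signal of Smoothened on at the base of the cilium, was at 12, 7.50 and 6.81 FPKM in Gli2CA tumors, against 15.6, 17.8 and 10.4 FPKM in NTC tumors. Gli2CA tumor 1 was above NTC tumor 3, and the log2 fold change was -0.71 with an SE of 0.30 and a 95% interval of -1.38 to -0.04 (limma, adjusted p = 0.163). Gpr161, a ciliary receptor that holds the pathway off, was at 5.55, 3.39 and 3.97 FPKM in Gli2CA tumors, against 8.24, 6.92 and 5.26 FPKM in NTC tumors, at -0.61 (SE 0.27, limma adjusted p = 0.187). Tulp3, the adaptor that brings Gpr161 into the cilium, was at 45.6, 30.1 and 36.3 FPKM in Gli2CA tumors, against 50.2, 63.7 and 41.7 FPKM in NTC tumors, at -0.47 (limma, adjusted p = 0.25).

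Evc2 had an estimate of -0.47. Kif7, the tip kinesin that organizes the Gli proteins, had one of -0.25, or 0.09 with that trend removed, and 20.3% of its exon bases overlap other genes. The fibroblast and endothelial marker sums given above were lower in every Gli2CA tumor, in the same direction as these 5 genes. The sum of 9 leukocyte markers was 249.8 to 321.2 FPKM in Gli2CA tumors and 345.3 to 460.8 FPKM in NTC tumors. Of these markers 8 were tested and none was called, and they did not move together. While 6 estimates were below 0 (Itgam at -0.07), Ptprc, shared by most leukocytes, was at 0.09, and S100a8 was at 1.21, higher without overlap. The part of these marker sums in the levels of the cilium genes was not tested.

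The wider Hedgehog pathway was measured beside them on 11 genes, of which 10 were tested. All 10 estimates were below 0, with a median of -0.90, and none was called, while 7 reached an unadjusted p under 0.05 in limma, all lower, beside 14.7% of all genes in that direction. Gli2 had a log2 fold change of -1.40 (SE 0.38, limma adjusted p = 0.0853), with groups that did not overlap.

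At the basal body, Odf2l stood alone among 4 genes. Its relative Odf2, which is needed for the appendages of the mother centriole, was at 16.5, 11 and 12.9 FPKM in Gli2CA tumors, against 18.4, 18.3 and 15.3 FPKM in NTC tumors, at a log2 fold change of -0.37 (SE 0.23, limma adjusted p = 0.32). Rab34, a GTPase of the vesicle that forms the young cilium, was at 44.8, 28.5 and 34.4 FPKM in Gli2CA tumors, against 51.7, 50.6 and 38.8 FPKM in NTC tumors, at -0.40 (limma, adjusted p = 0.31). Cep164, a distal appendage protein that docks that vesicle, had an estimate of -0.34. In Rab34, Odf2 and Cep164 the groups overlapped.

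The transition zone had 6 members, none called, with 2 estimates above 0 and 4 below and a median of -0.27. Tmem67, the membrane receptor meckelin, was at 2.95, 2.57 and 3.41 FPKM in Gli2CA tumors, against 4.78, 6.15 and 4.98 FPKM in NTC tumors, at a log2 fold change of -0.74 with an SE of 0.24 and a 95% interval of -1.28 to -0.19 (limma, adjusted p = 0.106). Every Gli2CA tumor was below every NTC tumor, and 5.42% of the exon bases of Tmem67 overlap other genes. Tctn1, a tectonic of the gate complex, was at 2.63, 2.80 and 1.59 FPKM in Gli2CA tumors, against 2.62, 4.12 and 3.41 FPKM in NTC tumors, at -0.46, and 25.5% of its exon bases overlap other genes. Cep290, which tethers membrane to microtubules at the gate, was at 3.15, 2.09 and 2.65 FPKM in Gli2CA tumors, against 2.93, 3.67 and 3.51 FPKM in NTC tumors, at -0.32. For Tctn1 and Cep290 the groups overlapped.

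Tctn2, a second tectonic, had an estimate of -0.22, and Rpgrip1l, a gate scaffold, had one of 0.12 that turned sign with protein-coding genes alone rescaled. Mks1, a component of the same complex as the tectonics, was at 1.88, 4.83 and 1.86 FPKM in Gli2CA tumors, against 1.84, 2.89 and 2.31 FPKM in NTC tumors. Its estimate of 0.14 rests on Gli2CA tumor 2 and was -0.25 without it. Annotated exons of Ift57, Ift88, Bbs4, Bbs12, Kif17, Arl6, Odf2 and Cep290 also overlap other genes, by less than 8% of their exon bases, and without a stated strand setting the reads of such genes and their neighbours cannot be told apart.

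**Figure D4:**
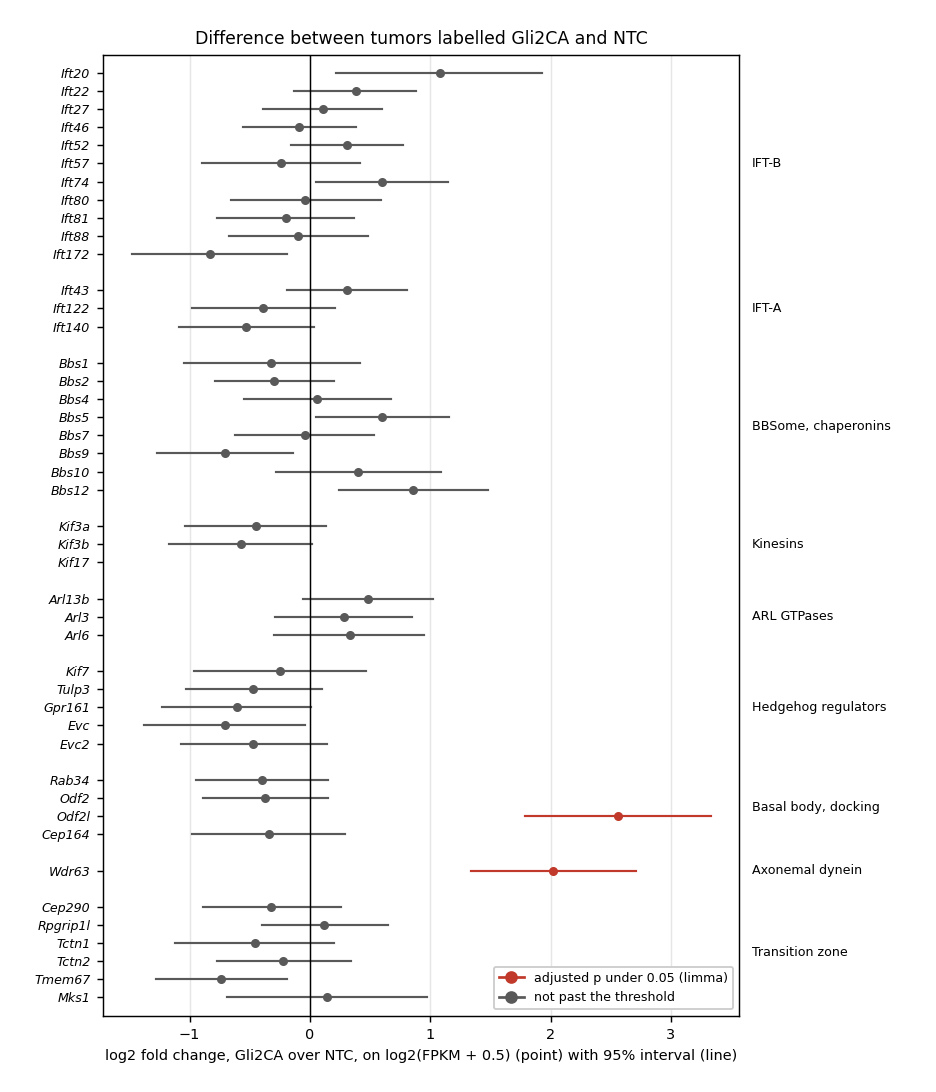
Log2 fold change of Gli2CA over NTC for the 43 tested cilium genes with 95% intervals, grouped by role, with genes past an adjusted p of 0.05 in red. The intervals of Odf2l and Wdr63 start above 1, the estimates of the 5 Hedgehog regulators lie left of 0 (that of Kif7 turned to 0.09 with the length trend removed), and most other intervals include 0.

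Across the cilium genes, the log2 fold change was related to transcript length. The rank correlation of the estimate with the mean length of the annotated transcripts was -0.43 over 43 members and -0.41 over 15814 tested genes with a length, so the cilium genes followed a relation present in the whole table. These genes share the same 6 libraries, and the values are descriptive. Among members shorter than 1599 bases, the median over all tested genes, 12 of 19 estimates were above 0 with a median of 0.28, and among the longer ones 5 of 24 with a median of -0.33. The same medians over all genes were 0.20 and -0.25. Odf2l (1598 bases) and Wdr63 (1515 bases) lie next to the median length, and both stayed past the threshold when the length trend was removed. The signs of the IFT-A genes fell along this line too, as Ift43 is short (646.1 bases) while Ift122 and Ift140 are long (2374 and 2524 bases).

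**Figure D5:**
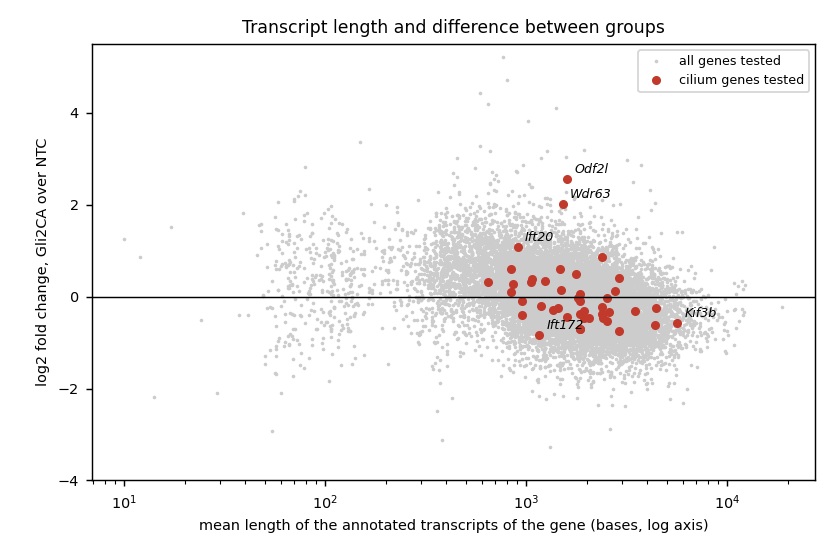
Log2 fold change of Gli2CA over NTC against the mean length of a gene's annotated transcripts on a log axis, for all tested genes in grey and the 43 cilium genes in red. Both clouds slope downward, with rank correlations of -0.41 and -0.43. Odf2l and Wdr63 lie above the other cilium genes at middle length, while the grey cloud reaches 5.21.

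Beyond the 44 genes, 75 further cilium genes in 5 lists were counted, of which 71 were tested and none was called in limma. An unadjusted p under 0.05 was reached by 9 (12.7%, beside 27.5% of all tested genes), 7 higher and 2 lower, the median log2 fold change was 0.09, and the groups did not overlap for 20 (28.2%, beside 33.8%). The 7 higher genes are all shorter than the median length of 1599 bases and the 2 lower ones are longer, the directions of the relation with length in the whole table. The part of length in their differences was not tested. Of the remaining transport and dynein-2 genes, 15 of 16 were tested. Hspb11, also known as Ift25 and the partner of Ift27, was at 32.1, 48.9 and 32.4 FPKM in Gli2CA tumors, against 11.8, 14.5 and 17.3 FPKM in NTC tumors, at a log2 fold change of 1.34 (SE 0.25, limma adjusted p = 0.0565). The groups lay far apart, although its partner Ift27 had an estimate of 0.11. Hspb11 was past the threshold when genes under a mean of 1 FPKM were left out. It also passed with array weights, protein-coding genes alone rescaled and a replicate block, and under no other alternative. Tctex1d2, a dynein-2 light chain, was at 14.2, 26.4 and 18.9 FPKM in Gli2CA tumors, against 6.67, 8.33 and 12.9 FPKM in NTC tumors, at 1.06 (limma, adjusted p = 0.093).

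In the other BBSome list of 4 genes, Bbip1, the smallest subunit, was at 18.2, 37.6 and 20.7 FPKM in Gli2CA tumors, against 6.32, 11.5 and 12.1 FPKM in NTC tumors, at a log2 fold change of 1.29 (SE 0.34, limma adjusted p = 0.0827). Mkks, a chaperonin-like relative of Bbs10 and Bbs12, had an estimate of 0.52. Of 18 other transition zone genes, 2 had an unadjusted p under 0.05, both higher: B9d1, at 0.91 (limma, adjusted p = 0.128), and Tmem107, at 0.69 (limma, adjusted p = 0.153), each a component of the gate complex. In Bbip1, B9d1 and Tmem107 the groups did not overlap.

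Among 26 tested genes of other basal body and ciliogenesis functions, 1 was higher and 2 were lower at an unadjusted p under 0.05. The higher one was Rab11a, a GTPase of recycling vesicles, with an estimate of 0.70, named after its value was seen. Ick, a kinase that limits cilium length and acts on transport at the tip, was at 8.06, 7.56 and 7.53 FPKM in Gli2CA tumors, against 17.5, 24.4 and 14.6 FPKM in NTC tumors, at a log2 fold change of -1.20 (SE 0.24, limma adjusted p = 0.0636). Every Gli2CA tumor was well below every NTC tumor. Rfx5 had an estimate of -0.99 (limma, adjusted p = 0.0868), and it is known as an activator of MHC class II genes and not as a ciliary RFX factor.

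The 8 cilium disassembly genes had a median of 0.15 and none was called. Aurka, the mitotic kinase that also starts cilium resorption, was at 21.9, 11.2 and 30.3 FPKM in Gli2CA tumors, against 6.60, 13.2 and 9.72 FPKM in NTC tumors, at a log2 fold change of 1.01 (limma, adjusted p = 0.139). Gli2CA tumor 2 was within the NTC range. The 8 proliferation markers, summed, followed the same order among the Gli2CA tumors, at 340.4, 143.1 and 440.1 FPKM, against 122.9, 216.5 and 180.1 FPKM in NTC tumors, and their part in the level of Aurka was not tested. Tchp, a centriole protein that holds ciliation back, had an estimate of -0.41.

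Because Wdr63 belongs to motile cilia, 21 other motile cilium genes were looked at beside it. Only 8 of them reached the level for testing, none was called, and none had an unadjusted p under 0.05 in limma, with a median of -0.25. Ccno, needed for the many centrioles of multiciliated cells, was at 3.08, 0.961 and 1.82 FPKM in Gli2CA tumors, against 1.09, 0.325 and 0.880 FPKM in NTC tumors, at a log2 fold change of 0.92 (limma, adjusted p = 0.185). Cfap43, an axonemal protein, was at 19.8, 6.19 and 10.9 FPKM in Gli2CA tumors, against 22.7, 16.4 and 15.9 FPKM in NTC tumors, at -0.68. Both overlapped between groups. Foxj1, the main activator of motile cilium genes, was at 0.446, 0.376 and 0.189 FPKM in Gli2CA tumors, against 0.445, 0.776 and 0.194 FPKM in NTC tumors, and was under the level for testing. Mcidas, a regulator that starts the multiciliated cell programme, was also under that level, and was at 1.03, 0.622 and 0.584 FPKM in Gli2CA tumors, from 48, 24 and 28 fragments, against 0.0755, 0.0398 and 0.119 FPKM in NTC tumors, from 4, 2 and 5 fragments. All Gli2CA tumors were above all NTC tumors in Mcidas, which was not tested because its mean was under 0.5 FPKM, as were 12 others of the 21.

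The summed level of 7 keratinocyte markers, an epithelial set, was 49.3 to 129.3 FPKM in Gli2CA tumors and 12.1 to 27.2 FPKM in NTC tumors, and its part in Wdr63 or Mcidas was not tested. Most of that sum came from Pkp1, a desmosome protein, which averaged 56.4 FPKM in Gli2CA and 13.7 FPKM in NTC tumors, with Krt14 and Krt10. Cdh1, the epithelial cadherin, went the other way without overlap, at 0.691 FPKM in Gli2CA and 1.97 FPKM in NTC tumors, and Krt5, Krt15 and Dsp were near 0 in both groups.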

How the data were processed

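Whole-tumor RNA was sequenced from 6 samples after poly-T selection and random-primed library preparation, per the labels' protocols. The authors deposited FPKM per gene for 54532 genes in each sample. The sources used here do not give the aligner, counter, build, annotation or strand setting. Symbols and lengths came from GENCODE M21 (54495 IDs matched). FPKM multiplied by the mean transcript length gave whole fragments within 0.1 for 97.2% to 97.6% of low values in multi-transcript genes, and the recovered fragments summed to 0.994 to 0.9997 of the step totals. No pair of libraries agreed within sampling noise.

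Genes with a mean of at least 0.5 FPKM (15820) were tested on log2 of the deposited FPKM plus 0.5 with limma 3.58.1 in R 4.3.3 (lmFit, eBayes with trend, two-sided, Benjamini-Hochberg over all genes, threshold 0.05). Because the deposited unit is FPKM, a count model was used only as an alternative, limma-voom on the recovered fragments. The 19 alternatives were other pseudocounts (1 and 0.1), other filters, scalings and variance settings, protein-coding genes alone, a replicate block, limma-voom, removal of a length trend, and each tumor left out. Promoters came from RefSeq, with 40 of 44 genes matched (Ift80, Ift81, Ift122 and Tmem67 were not). Scripts used Python 3.11.15, numpy 2.4.6, pandas 2.3.3, scipy 1.17.1 and matplotlib 3.10.9, and the fit was tested on simulated data.

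The members, gene lists and alternatives were chosen with earlier results of these data known. The text names every member with its role and gives values in each tumor for called members, for the 3 members of a role group with the smallest p, and for untested ones. It names Gli2 and the 2 genes of each other list with the smallest p, except that 1 Hedgehog pathway gene and part of the line's genotype are not reported here. Mks1, Bbs2, Foxj1, Mcidas and the neighbours of Odf2l and Wdr63 were given values after these had been seen. The same-numbered tumors were not taken as pairs.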

Additional observations from a re-analysis of the deposited data

How the results depend on the processing

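With 3 tumors a group, gene calls depended strongly on the setting, and the causes were not tested. The 55 calls over all genes became 145 with genes of a mean of at least 1 FPKM, 3 with no filter, 36 with quantile normalization, 101 with robust eBayes, 1588 with array weights, 711 with protein-coding genes alone rescaled, 105 with limma-voom on recovered fragments (0.664% of tested genes), and 4 to 97 when 1 tumor was left out. The 2 called cilium genes became 0 with no filter, 1 (Odf2l) with quantile normalization and 0 to 1 when 1 tumor was left out. The 0 calls in the other cilium and Hedgehog lists became 1 with a mean of at least 1 FPKM, 9 with array weights and 6 with protein-coding genes alone rescaled. Odf2l passed under 13 of 19 alternatives (adjusted p 0.00354 to 0.179, limma) and Wdr63 under 11 (0.012 to 0.205), with no filter among those that ended both calls. Bbs12 passed with array weights, at an adjusted p of 0.0493. The members' median, -0.20, ran from -0.34 (protein-coding genes alone rescaled, which moved the median of all genes by -0.25) to 0.00 (without NTC tumor 2).

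Same-numbered tumors deviated together by correlations of 0.353, 0.221 and 0.024, all above 0, and differently numbered ones by -0.285 to 0.078. Whether the numbers mark a pairing cannot be told from these values. The labels do not state one, so the fit used throughout took none. A replicate block gave 1928 calls over all genes, 4 among the cilium genes (Ift20 at 0.0455 and Ift172 at 0.0406 in addition) and 10 in the other lists. Gli2CA tumor 3 correlated best with NTC tumor 1 (0.025), the other 2 with their own number.

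Signs turned for 11 members, none of them called, and the values here are log2 fold changes. With quantile normalization Ift80 was 0.06 and Bbs7 0.00. With array weights Bbs4 was -0.02, Bbs7 0.00 and Mks1 -0.19. With protein-coding genes alone rescaled Ift27 was -0.09, Bbs4 -0.12, Rpgrip1l -0.06 and Mks1 -0.03. With the length trend removed Ift27 was -0.17, Ift80 0.16, Ift43 -0.11, Bbs7 0.04 and Kif7 0.09. When each tumor was left out in turn, the estimate of Ift27 ran from -0.00 (without Gli2CA tumor 2) to 0.23, that of Ift46 from -0.18 to 0.02 (without NTC tumor 2), that of Ift57 from -0.41 to 0.03 (without Gli2CA tumor 2) and that of Ift88 from -0.23 to 0.07 (without NTC tumor 2). Ift80 ran from -0.26 to 0.18 (above 0 without Gli2CA tumor 1 or NTC tumor 2), Bbs7 from -0.18 to 0.08 (above 0 without Gli2CA tumor 2 or NTC tumor 2), Bbs4 from -0.10 to 0.24 (below 0 without Gli2CA tumor 2 or NTC tumor 3) and Mks1 from -0.25 (without Gli2CA tumor 2) to 0.34. The other 32 tested members kept their sign under every alternative that tested them, which excludes the filter at a mean of 1 FPKM for Bbs1 and the protein-coding rescaling for Tctn2. The depth limits Kif17, with 0 to 7 fragments a tumor.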
